A study of Mus musculus with 1600 samples.

Results

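Mesenchymal cells of the embryonic mouse hind limb that carried a high level of Aldh1a2 transcript were compared with cells from the same limbs that carried little or none. The cells came from C57BL/6 embryos of the SCX-GFP transgenic line at stage E12.5, counted in days of gestation, a time at which digits and the tissue between them take shape. All cells of both groups share this strain, transgene, tissue and stage, no treatment is named, and no sorting by GFP is named either. Of 160 cells labelled E12.5, 130 had at least 1000 detected genes and at least 50 CPM of Prrx1, a homeobox gene of limb mesenchyme. CPM is the gene's count divided by the cell's total count and multiplied by 1e+06. Of these 130 cells, 15 had an Aldh1a2 level of at least 200 CPM and are called Aldh1a2-high, 101 had under 10 CPM and are called Aldh1a2-low, and 14 lay between. The 116 cells of the 2 groups were part of a table of 480 cells from 3 stages, in a series of 1600 samples.

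Aldh1a2 encodes retinaldehyde dehydrogenase 2, the enzyme that makes retinoic acid from retinal in most tissues of the embryo. Retinoic acid binds nuclear receptors of the RAR family, which pair with RXR receptors on short repeated DNA sites and switch on target genes, while CYP26 enzymes break it down. In the limb of this period Aldh1a2 is known as a gene of the interdigital tissue, where retinoic acid acts together with bone morphogenetic proteins (BMPs) in the removal of the cells between the digits.

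Cells were captured one by one on the Fluidigm C1, a microfluidic chip, and their libraries were sequenced in pools of 40, of which pools 4 to 7 held the E12.5 cells. The Aldh1a2-high cells numbered 2, 3, 4 and 6 in pools 4, 5, 6 and 7, and the Aldh1a2-low cells 26, 22, 30 and 23. The high cells made up 11.5% of the 130 cells (exact Clopper-Pearson 95% interval 6.60% to 18.3%), from 6.45% in pool 4 to 17.6% in pool 7. Total counts per cell had a median of 218503 in the high group (134559 to 511964) and 268400 in the low group (2681 to 837376), and 6 low cells fell under 50000 counts. Median detected genes per cell were 4589 and 4907. The same 40 cell indexes were used in all 12 pools, and the 15 high cells carried 12 different ones. Limbs of littermates were combined, so all the cells are 1 sample, no test between the groups was possible, and the pools are a technical split. Intervals below cover counting error only, and reads multiplied by PCR are not separate molecules.

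The cells were chosen by their Aldh1a2 and Prrx1 levels, so these values are given as a description. Aldh1a2 ranged from 236 to 4533 CPM in the high cells, with a median of 982. In the low group 37 of 101 cells had a count of Aldh1a2, and the highest was 10.0 CPM. The nearest cell under the upper limit had 166 CPM, and the nearest above the lower limit had 13.7 CPM. Median Prrx1 was 617.2 CPM in high and 680 CPM in low cells, with 51.4 CPM in the cell just inside its limit and 47.9 CPM in the cell just outside. Aldh1a2 lies on chr9:71215789-71296243 on the plus strand of GRCm38, the mouse build named by the submitters.

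The comparison took in the 10566 genes found in 10 or more of the 116 cells. The words higher and lower are used for genes that met 3 conditions. The log2 ratio of the summed CPM of the groups, with 5 added to each, is at least 1 in size; the sign is the same in pools 5, 6 and 7; and at least 20% of the cells of the higher group have a count. By this rule 199 genes were higher in Aldh1a2-high cells (1.88% of those tested) and 1012 were lower (9.58%). The groups are very unequal in number, and the single highest cell held a median of 48.4% of a gene's counts in the high group against 15.2% in the low group. The pair share was therefore added after the data were seen. It is the percentage of all pairs of 1 high and 1 low cell in which the high cell has the greater CPM, with ties split evenly, and 50.4% was its median over all genes. Asking also for a pair share of at least 65% or at most 35% left 63 higher genes (0.596%) and 41 lower genes (0.388%). The calls named below are read against these shares of all genes.

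**Figure D1:**
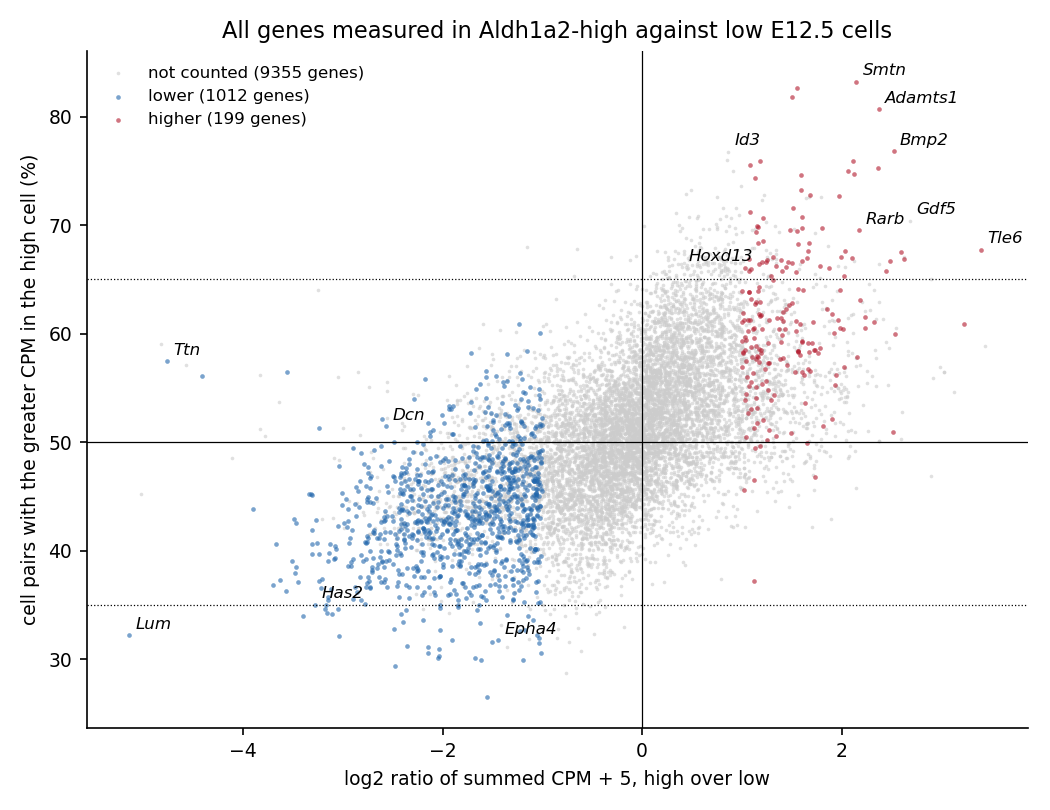
Each point is 1 of 10566 genes, placed by its log2 ratio of summed CPM + 5 in Aldh1a2-high over Aldh1a2-low cells (x axis) and by the percentage of high and low cell pairs with the greater CPM in the high cell (y axis), with dotted lines at 65% and 35%. Red and blue mark the 199 higher and 1012 lower genes; Bmp2, Adamts1 and Smtn stand far out on both axes, while most blue points lie near the middle of the y axis.

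Genes that passed both the ratio rule and the pair share limits included Bmp2, Adamts1 and Rarb on the higher side and Lum and Epha4 on the lower side. Bmp2 encodes a BMP ligand produced in interdigital and other limb mesenchyme (chr2:133552159-133562885, plus strand). Its level in the 15 high cells ran from 0 to 2093 CPM with a median of 199, and 12 of them had a count. In the 101 low cells the median was 0, the highest cell had 616.3 CPM and 44 had a count. Most high cells thus lay above most low cells, with a wide overlap: the high cell had the greater value in 76.8% of pairs. The summed levels were 297 CPM (exact Poisson 95% interval 281 to 313) and 47.5 CPM (45.1 to 50.0), a ratio of 6.24 or 2.52 on the log2 scale. The log2 ratio was 3.41 in pool 5, 3.14 in pool 7 and only 0.14 in pool 6, so the call rests on pools 5 and 7. After every cell was thinned to 50000 counts, 73.3% of the 15 high cells and 33.7% of 95 low cells still had a count of Bmp2. The 14 cells with intermediate Aldh1a2 stood between the groups, at 112 CPM of Bmp2.

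Adamts1, a secreted metalloproteinase that cuts matrix proteoglycans, was higher as well (chr16:85793827-85803113, minus strand). High cells ranged from 0 to 568.3 CPM with a median of 113, and 13 of 15 had a count. Low cells had a median of 0, a highest value of 528 CPM and a count in 38 of 101. The summed levels of 234 and 41.2 CPM gave a log2 ratio of 2.37, with 3.28, 1.33 and 2.37 in pools 5, 6 and 7. Its pair share of 80.7% was among the 4 highest of all genes tested, behind Smtn, Grinl1a and Aes, which were singled out after their values were seen. In the 2 high cells of pool 4 Adamts1 was at 0.

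Rarb encodes retinoic acid receptor beta and is a textbook target gene of retinoic acid itself. It lies on chr14:16430839-16819156, minus strand. Its RefSeq promoter window holds a pair of RAR half-sites 5 bases apart, the kind of direct repeat through which retinoic acid receptors bind. That repeat was found here at chr14:16575513-16575529 on the minus strand of GRCm38.p6, in a window of 250 bases before to 50 bases after the transcript start. It spans positions -53 to -37 from the start and is shown in capitals, since Rarb is both a reader and a known target of the product of Aldh1a2.
Rarb promoter: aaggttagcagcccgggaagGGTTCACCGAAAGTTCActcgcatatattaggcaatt
The search took direct repeats, on either strand and with a gap of 5, 2 or 1 bases, of any pair of these half-sites: AGGTCA as the textbook form, GGGTCA as a variant of it, and the forms found in Rarb, GGTTCA on the left and AGTTCA on the right. A gap of 5 was present in 32 of 32851 mouse promoter windows (0.0974%), and any of the 3 gaps in 193 (0.588%). The forms searched include those of the Rarb site, so its match was given by the search. A match is a description of letters, not evidence of binding in these cells.

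Rarb counts were found in 7 of 15 high cells and 8 of 101 low cells. Among high cells the range was 0 to 439 CPM with a median of 0, and the low cells reached 441 CPM in 1 cell, again with a median of 0. The groups therefore differed in how many cells had the transcript, while the positive cells of both overlapped in level. Summed levels were 54.4 CPM (47.7 to 61.8) and 8.12 CPM (7.15 to 9.19), a log2 ratio of 2.18. Pools 5, 6 and 7 gave 2.43, 3.35 and 1.06. Thinned to equal depth, 33.3% of high cells (11.8% to 61.6%) and 4.21% of low cells (1.16% to 10.4%) had a count. The 14 intermediate cells had 1.50 CPM, so the level of Rarb did not rise in order with Aldh1a2.

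**Figure D2:**
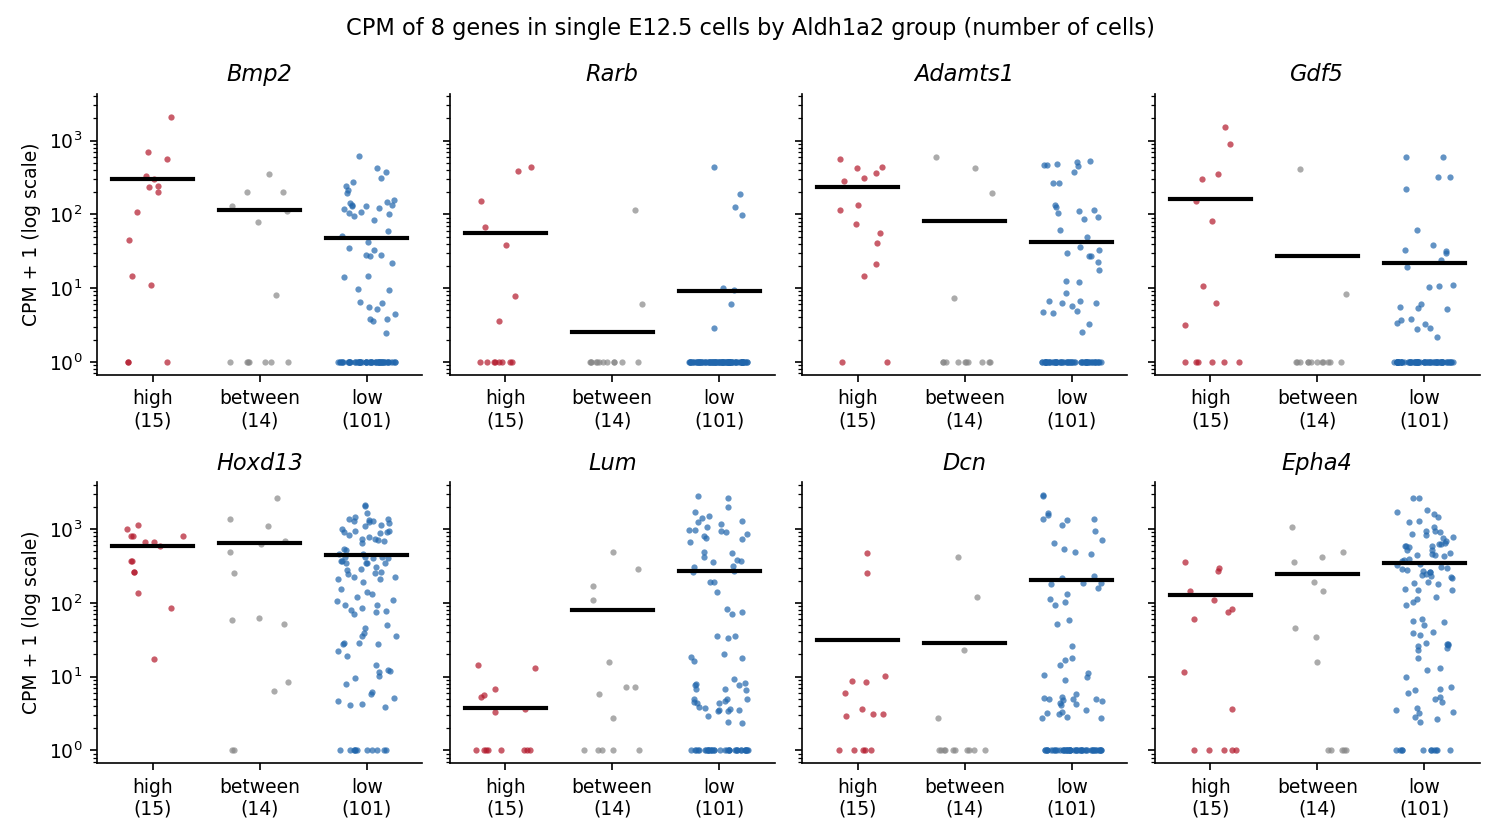
CPM + 1 on a log axis of 8 genes in each E12.5 cell, with cells placed by Aldh1a2 group (15 high, 14 between, 101 low) and a bar at the level of the summed counts. Points at 1 are cells without a count; Bmp2 and Adamts1 have a count in 12 and 13 of the 15 high cells, and no high cell passes 14 CPM of Lum.

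Other genes of the retinoic acid pathway gave calls in both directions, to be read beside 1.88% of all genes higher and 9.58% lower. Of 10 genes of synthesis and supply other than Aldh1a2, 5 had enough cells to test, and 0 were higher and 1 was lower, with a median log2 ratio of 0.55 against -0.14 for all genes. Rdh10, which oxidises retinol to the retinal that Aldh1a2 uses, reached 690 CPM in the cell with the most Aldh1a2 and had a count in 8 of 15 high and 21 of 101 low cells. Its summed levels were 88.7 and 32.1 CPM, but its log2 ratio of 1.34 turned to -2.14 in pool 6, so it was not called; without pool 6 it was 1.63. Stra6, the cell surface receptor that takes up retinol from its blood carrier, had 0 counts in the high group and 25.1 CPM in the low group. With 3 counts as the floor of the high group, the summed level was at least 36.6-fold lower. Stra6 was found in 26 of 101 low cells, and its pair share of 37.1% was not past the limit. Thinned to equal depth, 0% of high cells (0% to 21.8%) and 17.9% of low cells (10.8% to 27.1%) had a count. These intervals overlap, and the call was lost on thinning. Aldh1a1 had 0 counts in both groups, and Aldh1a3, the remaining enzyme of this family, had a count in 0 high cells and 1 low cell.

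Of 5 tested breakdown and buffering genes 0 were called in either direction, with a median of -0.12. The shares over all genes were 1.88% higher and 9.58% lower, with a median of -0.14. Cyp26b1, the main retinoic acid degrading enzyme of the distal limb, was at 174 CPM in high and 189 CPM in low cells, with a pair share of 50.0%. The binding proteins Crabp1 and Crabp2, which hold retinoic acid in the cytoplasm, had log2 ratios of -0.86 and 0.24, and Crabp2 had a count in all 15 high cells. Dhrs3, which returns retinal to retinol, had a ratio of -0.92 and was not called, though it passed without pool 4 (-1.21), as Crabp1 did without pool 7 (-1.12). Among 12 receptors and cofactors 1 was higher (Rarb) and 2 were lower (Rara and Rxra), with a median of -0.40. Rara was at 2.51 CPM in high and 18.1 CPM in low cells. Rxra was at 30.2 and 70.2 CPM, a call that ended without pool 7 (log2 ratio -0.60) and with DESeq2 size factors (-0.98). Rarg, abundant in limb mesenchyme, was at 78.2 and 83.2 CPM and did not differ by the rule.

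The label of the group as interdigit-like was checked against 19 marker genes of interdigital tissue. Of the 15 that could be tested, 2 were higher (Bmp2 and Rarb) and 2 were lower (Mmp11 and Snai2), with a median log2 ratio of 0.34 against -0.14 for all genes and 11 of 15 above 0. Over all genes 1.88% were higher and 9.58% lower. Mmp11, a matrix metalloproteinase, was at 19.7 CPM in high and 124 CPM in low cells, a log2 ratio of -2.38, or -3.25 without pool 6. Snai2, a zinc finger repressor of mesenchymal cells, was at 22.4 and 69.2 CPM, and its ratio of -1.44 was -2.20 without pool 5, while its call ended by TMM scaling (-1.35) and when per-cell CPM values were averaged (-0.49). The homeobox gene Msx1, a BMP target, had a count in all 15 high cells and 82 of 101 low cells, with medians of 320 and 24.9 CPM. Its summed log2 ratio was 0.58, under the limit. Bmp4 had a ratio of 0.34 and was not called, and without pool 7 its direction turned, to -1.44, past the limit. Bmp7 had a ratio of 1.74 with counts in 3 of 15 high and 16 of 101 low cells, and it was called only without pool 5 (1.86). Tgm2, Hoxa13 and Jag2 had a count in 0 high cells and in 1, 3 and 3 low cells, too few in either group to compare. Called markers thus lay on both sides, with both higher genes also past the pair share limit and 0 lower genes past it, and the cells are called by their Aldh1a2 level in what follows.

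**Figure D3:**
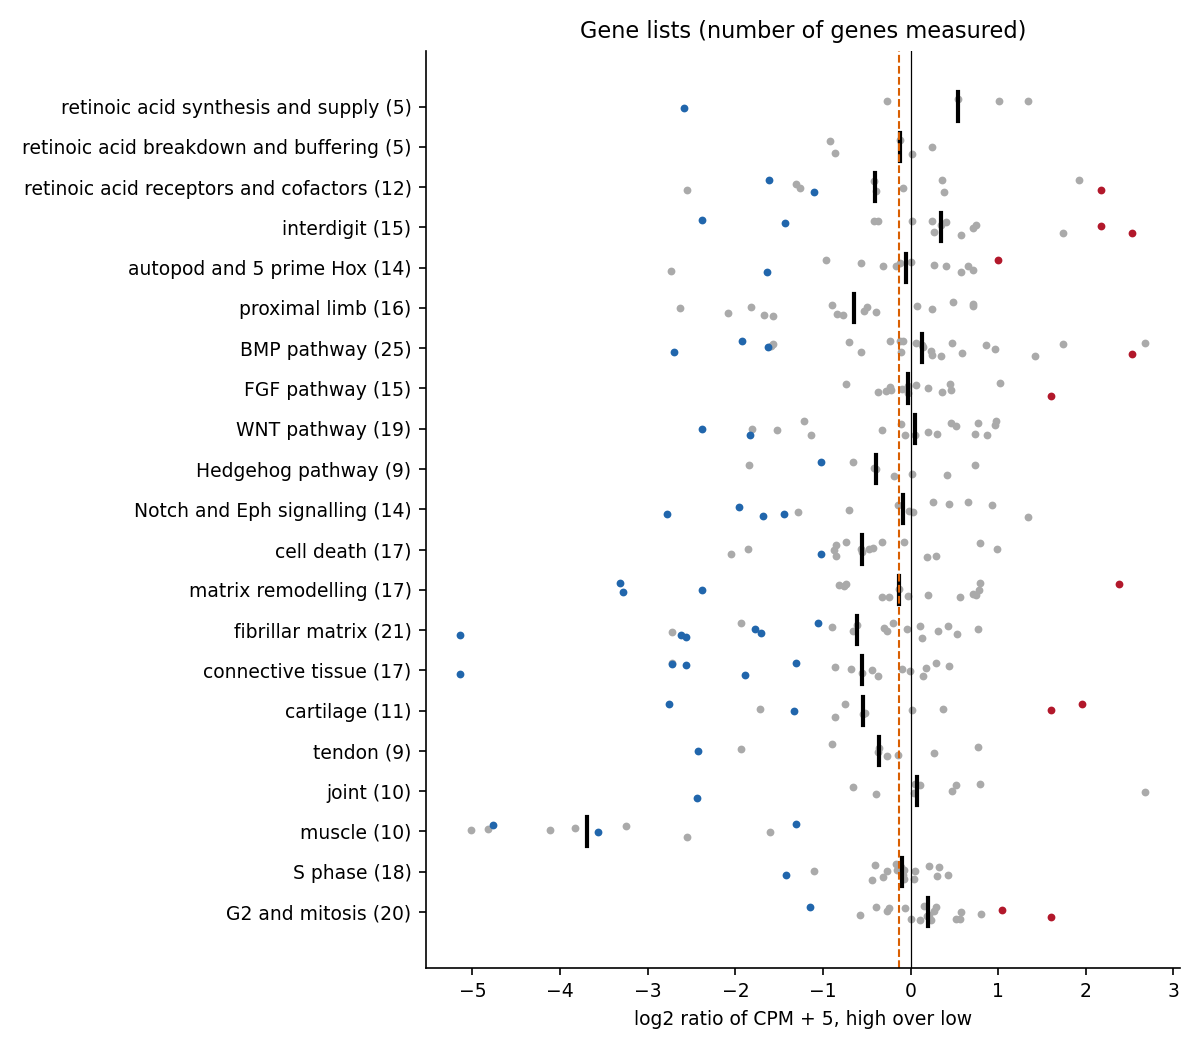
Log2 ratio of CPM + 5 in Aldh1a2-high over Aldh1a2-low cells for each tested gene of 21 gene lists, with the number of genes in parentheses, a black bar at the list median and a dashed line at the median of all genes (-0.14). Red and blue points passed the rule as higher or lower; the fibrillar matrix list has 6 blue points and the retinoic acid and interdigit lists have points on both sides.

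Of 25 tested members of the BMP pathway 1 was higher (Bmp2) and 3 were lower (Bmpr1b, Acvr2a and Smad6), beside 1.88% and 9.58% of all genes. The list median was 0.13 against -0.14 for all genes, and 0 of the 3 lower genes passed the pair share limit. Acvr2a, a type II receptor, was at 15.3 against 72.2 CPM, and its call ended without pool 7 (log2 ratio -0.92). Smad6, an intracellular inhibitor of the pathway, was at 1.60 against 37.8 CPM and had a count in 3 of 15 high and 38 of 101 low cells. Bmpr1b, a type I receptor of cartilage condensations, had a log2 ratio of -1.62 that was -3.00 without pool 4, -1.02 without pool 7 and -0.17 against low cells with 0 counts of Aldh1a2. It had a count in 6 of 15 high and 25 of 101 low cells, with a pair share of 55.4%. The transcriptional target Id3 was detected in all 15 high and 98 low cells, with medians of 1537 and 649 CPM and a pair share of 76.8%. Its log2 ratio of 0.86 stayed under the limit, though it was above 0 in pools 5, 6 and 7 (0.69, 0.80 and 0.99). The related targets Id1 and Id2 had ratios of -0.12 and -0.11.

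Gdf5, a BMP family ligand that marks forming joints, had the largest ratio of the fixed set without passing the rule. It was at 160 CPM in high and 20.7 CPM in low cells, a log2 ratio of 2.68, with counts in 9 of 15 and 26 of 101 cells. The ratio was 3.98 in pool 6 and 3.17 in pool 7 but -1.29 in pool 5, without which the gene passed at 3.51. At 50 CPM or more it was present in 6 high cells and 6 low cells. The joint list, which includes Gdf5, had 10 tested genes, of which 0 were higher and 1 was lower (Trps1). Its median was 0.08 against -0.14 for all genes, of which 1.88% were higher and 9.58% lower. Trps1, a zinc finger repressor, was at 26.5 against 166 CPM (-2.44). Its ratio was -3.81 without pool 5, where it was -0.53, and -1.42 with the high group from 100 CPM, and the call was lost against low cells with 0 counts of Aldh1a2.

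Beyond these lists, the 12 higher genes with the largest ratios came from varied functions. Tle6, a Groucho-related cofactor, had 52.6 against 0.453 CPM and a count in 6 of 15 high and 6 of 101 low cells; its log2 ratio of 3.40 came to 2.38 without the highest cell of each group. BC030867, at 3.23, had counts in 7 high and 31 low cells. B4galt4, a galactosyltransferase, had 79.5 against 8.74 CPM (2.62), and Atrnl1, an attractin-like membrane protein, 66.5 against 7.80 CPM (2.48). Without pool 7 their log2 ratios were 1.46 and 1.84. Clp1, an RNA kinase of tRNA splicing, had 88.4 against 10.49 CPM, with a ratio of only 0.07 in pool 6. Zfyve27, an endosomal protein, had a ratio of 2.52 that was 0.69 without pool 7 and 0.58 without its highest cells; 1 cell held 83.1% of the counts of the high group. Mcat, an enzyme of mitochondrial fatty acid synthesis, Fam109a, an endosomal adaptor, and Colec12, a scavenger receptor, had ratios of 2.24, 2.23 and 2.18. Of these, the ratio of Mcat was 1.41 without pool 6, that of Fam109a 1.57 and that of Colec12 1.25 without pool 5.

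**Figure D4:**
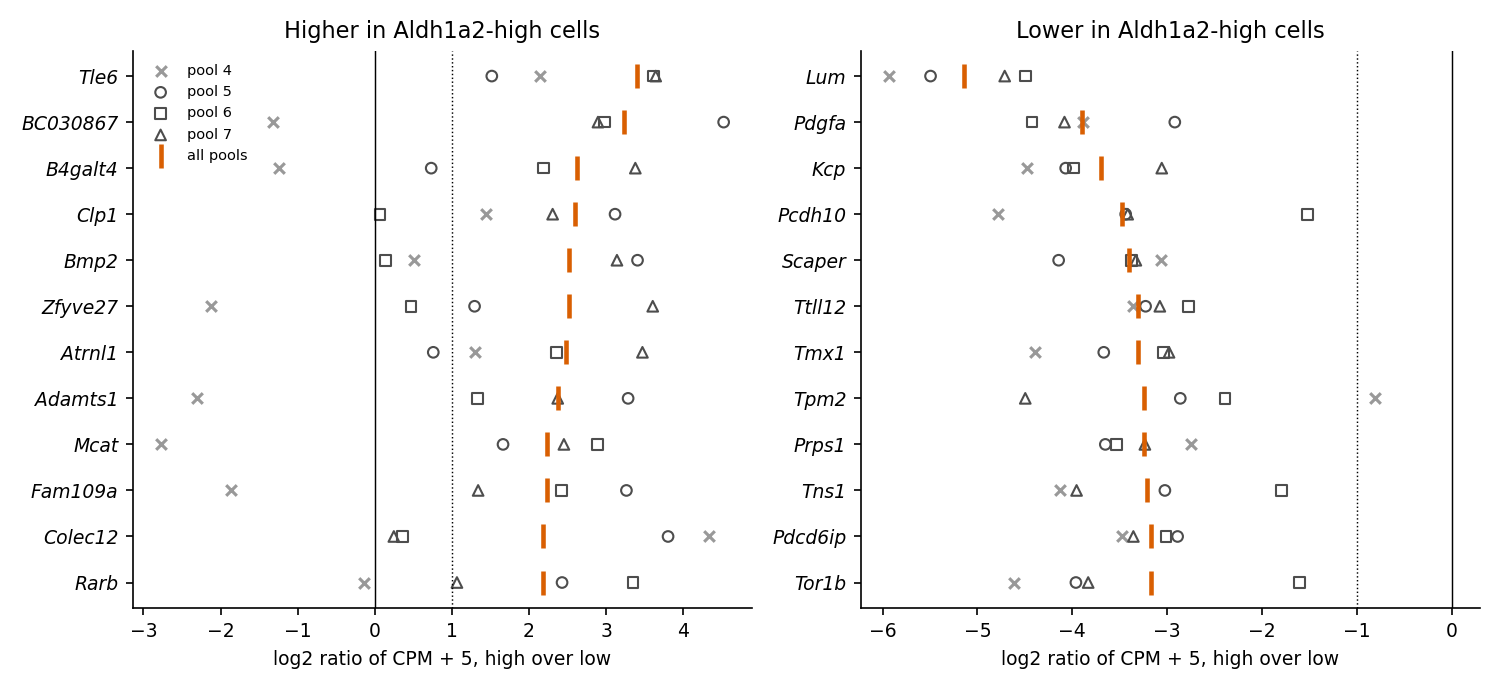
Log2 ratio of CPM + 5 in Aldh1a2-high over Aldh1a2-low cells within each E12.5 pool (grey and black symbols) and over all pools (orange bars), for the 12 higher and 12 lower genes with the largest ratios; dotted lines mark the limit of 1. Pool 4, with 2 high cells, did not enter the rule and lies on the other side of 0 for 7 of the higher genes, while the lower genes keep 1 sign in all 4 pools.

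A few genes outside the naming rule were chosen after their values were seen because of their pair shares. Smtn, which encodes the actin-binding protein smoothelin, had the highest pair share of all genes, 83.2%. Its counts were in 13 of 15 high and 26 of 101 low cells, at 69.5 against 11.8 CPM (log2 ratio 2.15), with 1.31, 1.36 and 3.03 in pools 5, 6 and 7. Slit2, a secreted guidance ligand, had counts in 11 high and 40 low cells, 154 against 44.5 CPM and a ratio of 1.68. Lama1, a laminin chain of basement membranes, was in 6 high and 5 low cells, at 40.9 against 6.25 CPM.

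On the lower side, Lum had the largest ratio of any called gene with at least 50 CPM in the low group. Lum encodes lumican, a small leucine-rich proteoglycan of collagen-rich connective tissue (chr10:97565128-97572703, plus strand). High cells ranged from 0 to 13.5 CPM with a median of 0, and 7 of 15 had a count. Low cells ranged from 0 to 2839 CPM with a median of 4.02, and 67 of 101 had a count. No high cell reached 50 CPM, while 35 low cells did. The summed levels of 2.74 CPM (1.42 to 4.79) and 268 CPM (262 to 273) make a 97.6-fold difference (55.8 to 189), and all 4 pools gave log2 ratios between -5.93 and -4.50. The 14 intermediate cells stood at 78.1 CPM, between the groups.

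Of 21 fibrillar matrix genes 0 were higher and 6 were lower (Col1a2, Col6a1, Eln, Dcn, Lum and Bgn), with a median of -0.61. For all genes the shares were 1.88% and 9.58% and the median was -0.14. The lower count was 5 by TMM or DESeq2 scaling and 2 by the pair share rule. Dcn, the related proteoglycan decorin, was at 30.2 against 203 CPM (-2.56). It had a count in 10 of 15 high and 52 of 101 low cells, with medians of 2.14 and 1.77 CPM and a pair share of 51.5%. At 50 CPM or more stood 2 of 15 high cells (13.3%) and 26 of 101 low cells (25.7%), so the share of the high group rests on 2 cells. The high cell with 478 CPM carried 59.8% of the counts of its group. Without pool 4 the Dcn ratio was -3.59 and without pool 7 -1.59. Col1a2, a chain of type I collagen, was detected in all 15 high and all 101 low cells, with medians of 580 and 790 CPM, summed levels of 552 and 1155 CPM and a pair share of 32.3%. Col6a1, a type VI collagen chain, was at 2.51 against 41.4 CPM, and Bgn, biglycan, at 3.43 against 23.9 CPM. Eln, elastin, had a count in 1 high cell and 21 low cells.

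Connective tissue markers showed the same direction where they were called. Of 17 tested markers 0 were higher and 5 were lower (Dcn, Lum, Osr2, Twist2 and Ogn), with a median of -0.56. Over all genes 1.88% were higher and 9.58% lower, with a median of -0.14. By the pair share rule 1 of these markers (Lum) was lower. Dcn and Lum also belong to the matrix list. Osr2, a zinc finger factor of limb connective tissue, was at 17.8 against 79.5 CPM, with a ratio of -1.89. Its ratio was -2.80 without pool 6 and -1.0007 without pool 7, and with averaged per-cell CPM (-1.32) it was no longer called. Ogn, another small proteoglycan, was at 1.14 against 35.6 CPM. Osr1, the partner of Osr2, had a ratio of -0.44 and was not called, and 1 high cell of pool 6 carried 76.1% of its counts in that group; without pool 6 it was -2.04.

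Of 17 matrix remodelling genes tested, 1 was higher (Adamts1) and 3 were lower (Mmp11, Adamts17 and Has2), beside 1.88% and 9.58% of all genes, and 0 were lower by the pair share rule. Has2, the main hyaluronan synthase of the limb, had 1 count in the whole high group against 45.8 CPM in the low group, where 35 of 101 cells had a count; the ratio of 200 has a counting interval from 35.9 to 7915. Adamts17 was in 3 high and 28 low cells, at 1.14 and 56.1 CPM, and its call ended when cells were thinned to 50000 counts (log2 ratio -3.18).

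Of 14 tested genes of Eph and Notch signalling, 4 were lower and 0 higher (1 by TMM or DESeq2 scaling). Over all genes 9.58% were lower and 1.88% higher. The list median was -0.08 against -0.14 for all genes, and by the pair share rule 1 gene (Epha4) was lower. Epha4 (chr1:77367185-77515088, minus strand), an ephrin receptor of limb mesenchyme, had medians of 60.2 CPM in high and 181 CPM in low cells. It had a count in 10 of 15 and 90 of 101 cells, and a pair share of 31.8%. Its summed levels of 125 and 349 CPM gave a log2 ratio of -1.44, or -2.47 without pool 7, where the ratio was -0.56. Epha7 was at 22.9 against 84.5 CPM (-1.68, or -1.03 without pool 7), and the ligand gene Efnb2 at 8.91 against 49.1 CPM. Notch1 had 0 counts in the high group and was found in 30 low cells, at least 42.7-fold lower in summed level at the floor of 3 counts. Thinned to equal depth, 0% of high cells (0% to 21.8%) and 21.1% of low cells (13.4% to 30.6%) had a count. These intervals overlap, and the pair share of 35.1% was not past the limit.

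The remaining lower genes with the largest ratios were of mixed function. They were low in nearly every high cell but also in most low cells, and a minority of low cells held the high levels. Pdgfa, a growth factor ligand of mesenchyme, was at 1.83 against 96.7 CPM, with a count in 6 of 15 high and 44 of 101 low cells and 50 CPM or more in 0 and 18, and Kcp, a secreted BMP modulator, at 2.06 against 86.8 CPM. Pcdh10, a protocadherin, was at 1.60 against 68.7 CPM. Scaper, Ttll12, Tmx1, Prps1, Tns1, Pdcd6ip and Tor1b had log2 ratios from -3.40 to -3.17. In low cells the medians of Pdgfa, Kcp, Pcdh10, Scaper, Ttll12, Tmx1, Prps1 and Pdcd6ip were 0, and 18 to 25 of 101 cells reached 50 CPM. Of the 7 genes from Scaper to Tor1b, 6 had no high cell at 50 CPM or above, and Tor1b had 1, in which 63.1% of its high-group counts lay; its ratio was -4.02 without pool 6. Tpm2, a tropomyosin, was at 13.9 against 174 CPM, and its ratio of -3.24 was -2.13 without 1 low cell rich in muscle transcripts and -2.12 without pool 7. It had a count in 12 of 15 high and 57 of 101 low cells, with medians of 6.05 and 5.33 CPM. Its pair share was 51.3%, and 1 low cell held 56.1% of its low-group counts.

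Calls among distal and proximal genes of the limb axis are to be read beside 1.88% of all genes higher and 9.58% lower. Hoxd13, a homeobox gene of the digit region, was present in all 15 high cells and 90 of 101 low cells, with medians of 593.8 and 210 CPM and a pair share of 66.1%. At 50 CPM or more it was in 14 high cells and 65 low cells, but the summed ratio was 0.40. Of 14 autopod genes 1 was higher and 1 lower. Hoxd12, the neighbour of Hoxd13, was at 155 against 74.8 CPM, a log2 ratio of 1.00 that was 0.84 without pool 5, 0.68 without pool 7 and 0.45 without the highest cells. Hoxd10, of the same cluster, was at 21.7 against 78.1 CPM (-1.64). The distal LIM factors Lhx9 and Lhx2 had ratios of 0.72 and -0.57. Of 16 proximal genes 0 were called, but their median was -0.65 against -0.14 for all genes, with 5 above 0. Meis1, Shox2 and Hoxa11 had ratios of -0.77, -0.40 and -0.49. Without pool 7 Meis1 was at -2.38, and without pool 5 Hoxa11 was at -1.05. Meis2, a proximal homeobox gene, was in 1 high and 19 low cells. The hind limb factors Pitx1 and Tbx4 were present in 13 and 9 of 15 high cells, and their ratios of 0.92 and 0.15 were not called. Pitx1 passed by TMM (1.02) and DESeq2 scaling (1.04), and Tbx4 turned to -1.28 without pool 5. Of the 11 genes of the limb mesenchyme list Meox2 alone was called, at 105 against 42.5 CPM, a call lost without pool 5 (log2 ratio 0.83).

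Genes of the skeletal and tendon lineages were mixed. Of 11 cartilage genes 2 were higher (Sox6 and Fgfr3) and 2 were lower (Col2a1 and Col9a2), beside 1.88% and 9.58% of all genes. Sox9, the master regulator of cartilage, had a log2 ratio of 0.02, and 5 of 15 high and 48 of 101 low cells had 50 CPM or more. Sox6, its partner, was at 133 against 30.6 CPM, and without pool 7 its ratio of 1.96 was 0.90. Fgfr3, a growth factor receptor of cartilage, was at 40.0 against 9.84 CPM (1.60, or 2.22 without pool 6). Col2a1, the main cartilage collagen, was at 160 against 410 CPM (-1.33) and lost its call without pool 6 (-0.41) and by TMM scaling (-1.22); without pool 7 it was -2.02. Col9a2, which encodes a chain of type IX collagen, was at 4.11 against 56.6 CPM (-2.76, or -3.47 without pool 4 and -1.92 without pool 6). Scx, the tendon factor whose reporter the embryos carry, was detected in all 15 high cells, at a median of 53.7 CPM against 119 CPM in low cells, with a ratio of -0.37. Mkx, another tendon factor, was at 3.88 against 42.7 CPM.

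Signalling and growth lists beyond BMP gave few calls, to be read beside 1.88% of all genes higher and 9.58% lower. Of 15 FGF genes 1 was higher (Fgfr3), and Fgf10 was at 31.8 and 30.2 CPM, a log2 ratio of 0.06 that was -1.82 without pool 5. Of 19 WNT genes 2 were lower (the inhibitor gene Dkk3, at -1.83, and the receptor gene Fzd7, at -2.38). The Dkk3 ratio was -0.004 in pool 6, and its call was lost in 7 of 18 alternatives, TMM (-1.77) and DESeq2 scaling (-1.76) among them, while without pool 6 it was -2.58. Without pool 7 Fzd7 was at -3.15. Wnt5a, a distal ligand, was at 243 and 235 CPM. Of 9 Hedgehog genes 1 was lower (Cdon, -1.03), and its call ended without pool 5 (-0.79). Of 17 cell death genes 0 were higher and 1 was lower, with a median of -0.55. The gene called was Bcl2l11, which encodes the death promoter BIM, at 9.14 against 23.6 CPM, a ratio of -1.02 that was -0.92 with DESeq2 size factors and -2.07 without pool 6, and its call ended without pool 4 (-0.81), 5 (-0.87) or 7 (-0.70). Of 9 senescence and cell cycle inhibitor genes Btg2 alone was called, with a count in 1 high and 33 low cells and a ratio of -2.44, or -3.74 without pool 7.

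For cell division, 18 S phase genes gave 0 higher and 1 lower, and 20 G2 and mitosis genes gave 2 higher and 1 lower. Their medians were -0.09 and 0.20, and 1.88% of all genes were higher and 9.58% lower. Bub1b, a spindle checkpoint kinase, had counts in 12 of 15 high and 54 of 101 low cells, at 246 against 77.3 CPM. Its pair share was 70.8%, but 1 cell with 1397 CPM in pool 7 held 38.5% of the high-group counts, and without pool 7 the ratio of 1.61 was 0.41. Aurka, a mitotic kinase, passed narrowly at 1.04 and was 0.40 without pool 7. Ccnb2, a mitotic cyclin, was lower at -1.14 (-1.98 without pool 5, -0.75 without pool 6), and Ccne2, a cyclin of S phase entry, at -1.42. The Ccne2 call was lost in 6 of 18 alternatives, TMM (-1.33) and DESeq2 scaling (-1.31) among them.

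Markers of other cell types were read beside these results. Of 17 muscle genes 10 were tested and 3 were lower (Ttn, Tnnc1 and Chrna1), beside 9.58% of all genes. The list summed to 61.2 CPM in the high group and 1535 CPM in the low group, and 1 low cell held 90.5% of the low-group muscle counts. Without that cell the log2 ratio of Ttn was -0.64 and that of Tnnc1 0.47, so those 2 calls rest on it. Muscle counts were between 0 and 193 CPM in single high cells. No high cell had over 1% of its counts in genes of muscle, endothelium, red cells, macrophages and mast cells, epithelium, nerve or mural cells. Among low cells only 1 did, for muscle, so this does not set the high cells apart. The red cell list was at 0 in the high group for 10 of 10 genes. Mural genes were at 260 CPM in the high and 281 CPM in the low group, and endothelial genes at 37.7 and 35.7 CPM. Epithelial genes were at 17.4 and 106 CPM, and nerve genes at 53.9 and 34.8 CPM. Macrophage and mast cell genes were at 15.1 and 30.3 CPM, with 9897 CPM in the highest low cell.

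The 15 high cells were themselves varied, as the map of 21 genes by cell shows. In the cell with the most Aldh1a2 (4533 CPM, pool 5) Bmp2 was at 2093, Rdh10 at 690 and Msx1 at 1501 CPM, while Dcn, Rarb and Epha4 were at 0. In the cell with the least (236 CPM, pool 4) Bmp2, Adamts1, Rarb and Gdf5 were all at 0, and Crabp2, Shox2 and Dcn were at 3636, 835 and 478 CPM. The highest Scx value, 2279 CPM, lay in a pool 5 cell with 485 CPM of Aldh1a2 and 0 counts of Bmp2. Gdf5 was highest, at 1506 CPM, in a pool 6 cell that also had the most Osr1 (976 CPM) and no Bmp2. Both Bmp2 and Adamts1 reached 50 CPM in 7 of 15 high cells and 4 of 101 low cells, while 2 high cells had that level of Bmp2 only and 3 of Adamts1 only. Bmp2 and Rarb reached it together in 2 high cells and 0 low cells, and Bmp2 and Gdf5 in 4 and 1.

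**Figure D5:**
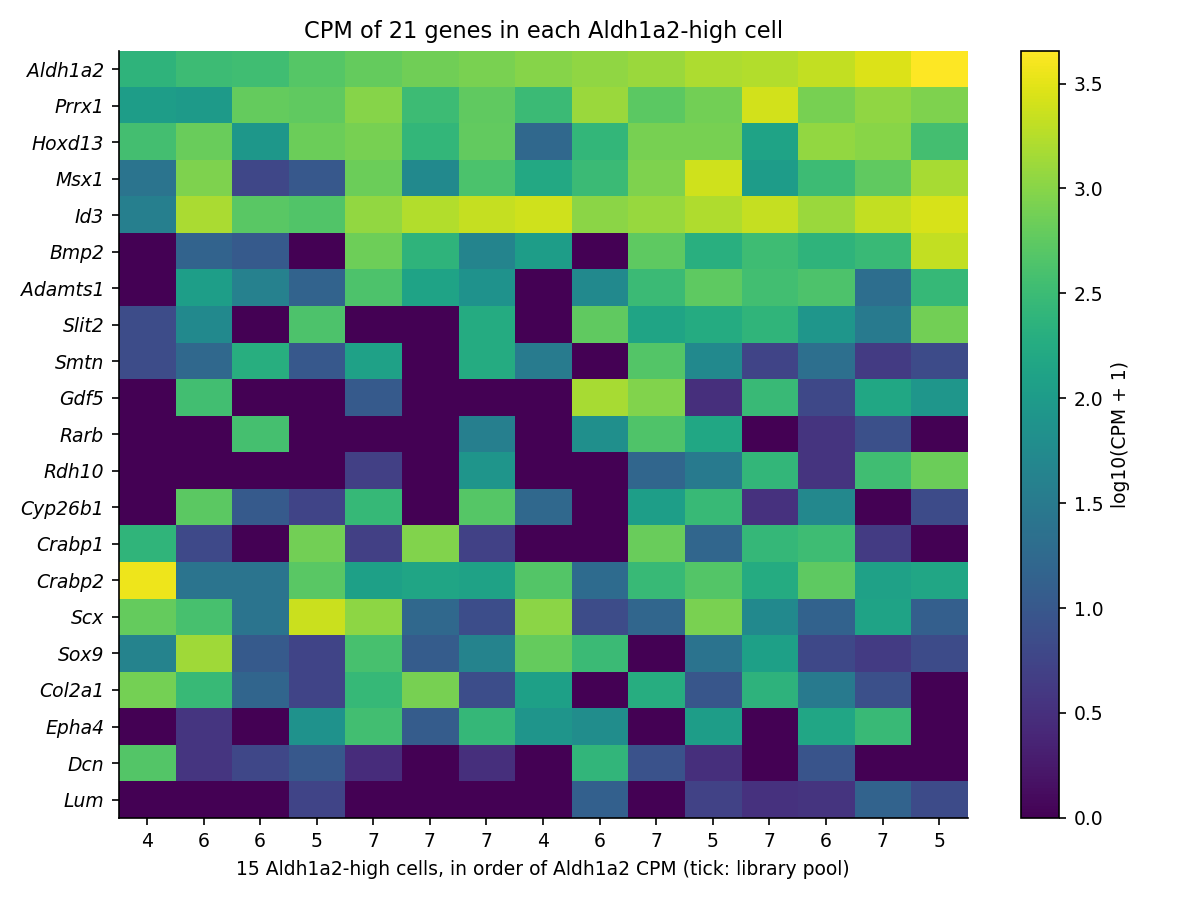
Heat map of log10(CPM + 1) for 21 genes in each of the 15 Aldh1a2-high cells, ordered from left to right by Aldh1a2 level, with the library pool under each column. Bmp2 is above 100 CPM in 9 cells, mostly on the right. Gdf5 and Rarb have a count in 9 and 7 cells, and Lum is dark in every column.

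Over the 130 cells, the 5 genes whose level ran most alongside that of Aldh1a2, among 5103 genes found in 40% of the cells or more, were Msx1as, Ruvbl1, Msx1, Adnp and Tax1bp1. Their Spearman correlations were 0.34, 0.33, 0.32, 0.31 and 0.31, given as a description across cells that share libraries and depth. All are weak in counts this sparse. They were picked as the largest of 5103 values, which raises their size by selection, and whether these genes vary with Aldh1a2 was not tested. Msx1as is an antisense transcript of Msx1. Whether counting used strand is not given in the sources used here, and reads of the pair cannot be told apart. Ruvbl1, an ATPase of chromatin complexes, had counts in 13 of 15 high and 53 of 101 low cells, with medians of 280 and 2.28 CPM. Adnp and Tax1bp1 had a count in 14 high cells each.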

How the data were processed

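The deposited table held whole-number read counts per gene and cell, with 22738 entries for 22092 symbols, and the authors applied no scaling that the values show. The submitters' processing notes name Bowtie2, featureCounts and mm10. Tool versions, annotation, strandedness and UMI use: not given in the sources used here. Entries of 1 symbol were kept once where identical and otherwise added. Samples outside the table were not analysed here.

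Stage came from each cell's label and pool from the index in it. CPM was a count divided by the cell's total. For groups, counts were summed over cells, and 5 was added before log2 ratios. Sums carry exact Poisson intervals and shares exact Clopper-Pearson 95% intervals. A count of 0 was given a floor of 3 counts over the group. Shares at equal depth used cells thinned to 50000 counts (15 high, 95 low). The ratio rule was checked on simulated counts only for finding planted changes. No limit was set there on false calls, and no differences between pools were simulated. Python 3.11.15, numpy 2.4.6, scipy 1.17.1 and pandas 2.3.3 were used, with scaling alternatives from edgeR 4.0.16 and DESeq2 1.42.0. Positions are from GENCODE vM21 (GRCm38), and promoter sequence is from RefSeq.

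The members, the 33 gene lists (464 symbols, 2 matched by an older symbol) and the alternatives were chosen with earlier results of these data known. For either direction the text names the 12 largest ratios among genes past the rule that had, in the higher group, a count in 40% of cells and a summed level of 50 CPM, leaving out ribosomal and predicted genes. Up to 4 called members of each list and direction with 20 CPM, a fixed set of limb and retinoic acid genes, and the 5 most like Aldh1a2 were added. Other genes named complete a count or were chosen after their values were seen. Doublets were not called.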

Additional observations from a re-analysis of the deposited data

How the results depend on the processing

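The share of tested genes that were called was recomputed under 18 alternatives, 1 of them, the pair share, added after the data were seen. The 1.88% of genes that were higher became 1.15% with 20 added to CPM, 1.09% after removal of each gene's highest cell from both groups, 4.04% with the high group from 400 CPM and 0.596% with the pair share rule. The 9.58% that were lower became 5.64% with 20 added and 0.388% with the pair share rule. Leaving out 1 pool gave 2.39% to 5.04% higher and 12.1% to 16.7% lower genes, lowest without pool 4 and highest without pool 7. Without pool 5, 6 or 7 fewer pools have to agree in sign. The limit of 400 CPM likewise leaves too few high cells in pool 6 for its sign to enter the rule. The other alternatives moved the counts by under 1.5 times, with 273 higher and 895 lower genes by TMM and 289 and 874 by DESeq2 size factors, which move the median log2 ratio of all genes from -0.14 to -0.03. Of 64 named genes past the rule, 30 kept their call under every alternative that tested them, the pair share aside. Of these, 8 also kept it under the pair share, Tle6 among them, which was tested in only 15 of the 18 alternatives. Among the 64 genes, 2 changed sign. The log2 ratio of Tnnc1 became 0.085 without the highest cells, 0.61 against low cells with 0 counts of Aldh1a2, 0.47 without cells over 1% of another cell type and 0.51 with Prrx1 from 200 CPM. That of Ttn became 0.95 against low cells with 0 counts of Aldh1a2. Bmp2 lost its call with per-cell means (2.65), with the high group from 100 CPM (2.47) and against low cells with 0 counts (2.37), where pool 6 changed sign, and Rarb lost its call against low cells with 0 counts (2.23). Against low cells with 0 counts, Efnb2, Hoxd10, Bgn and Ogn lost their calls too, and thinning ended those of Stra6, Mkx and Ogn. The cause of the other changes was not tested. With 15 high cells from 1 sample, the spread between embryos is unknown. No paired analysis was possible because no test was made: cells of 1 sample are not replicates. Both groups were present in pools 4 to 7, and the ratios within pools are part of the rule.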

Other observations

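Other genes with extreme pair shares, singled out after their values were seen, belonged to none of the lists. Grinl1a had a count in all 15 high cells, with medians of 889 CPM in high and 289 CPM in low cells, a log2 ratio of 1.55 and a pair share of 82.6%. Aes, a short Groucho-family corepressor, had medians of 203 and 69.4 CPM, a ratio of 1.51 and a pair share of 81.8%. On the lower side Ranbp3l had the lowest pair share of all genes tested, 26.5%, with a count in 6 of 15 high and 75 of 101 low cells. Meg3, an imprinted long noncoding RNA, was detected in all 15 high cells and 100 low cells, with medians of 285 and 1037 CPM and ratios of -1.08, -1.96 and -3.77 in pools 5, 6 and 7. The transcription factor genes Zfhx4 and Runx1t1 had ratios of -1.36 and -2.03, with pair shares of 34.1% and 32.7%.

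A further 28 E12.5 cells had enough genes but under 50 CPM of Prrx1, and 5 of these had at least 200 CPM of Aldh1a2. By the same limits 2 of 96 cells at E10.5 and 7 of 138 cells at E15.5 were Aldh1a2-high, too few to compare.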
